A study of Mus musculus with 3 samples.

Results

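Among the 10069 NR2F2 peaks of the fetal mouse testis, 16 lay at genes that encode cofactors and corepressors of NR2F2 and related nuclear receptors. The 9 genes were Ncor1, Nrip1, Zfpm1, Zfpm2, Bcl11a, Bcl11b, Ncoa1, Ncoa2 and Ncoa3, and each had at least 1 peak. A peak was assigned to a gene when the nearest transcription start site (TSS) of the curated RefSeq annotation (GRCm38) was that of the gene, or when it was no farther than 50 kb from any TSS of that gene. Of the 16 peaks, 13 had a member gene as the nearest TSS, and 3 were included by distance alone.

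The libraries came from E14.5 embryonic testes of the CD-1 mouse stock, used whole, dissected away from the mesonephros and carrying no allele or treatment that the labels name. Chromatin from 30 pooled testes was immunoprecipitated with an antibody against NR2F2 (COUP-TFII, Active Motif) in 2 independent experiments, here NR2F2 ChIP replicates 1 and 2, and 1 input library was sequenced without immunoprecipitation. A whole testis holds germ cells, Sertoli cells, interstitial and vascular cells, and the counts cannot be assigned to any of these cell types. More cells with NR2F2 at a site and more NR2F2 in each cell cannot be told apart. Expression was not measured in these libraries, so the tissue label was not checked against marker genes. At the 10069 peaks, the deposited reads summed to 73251 in the input, 426784 in replicate 1 and 364261 in replicate 2, with medians of 7, 37 and 31 reads a peak. The total depth of each library is unknown, and intervals given below cover counting error only. Peaks were called from the merged ChIP reads, so an excess of ChIP over input at a called peak is not independent evidence of binding.

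NR2F2 is an orphan nuclear receptor of the COUP-TF family that recognises repeats of the hexamer AGGTCA and can repress or activate transcription through the cofactors it recruits. In the fetal testis, it is known as a factor of non-steroidogenic interstitial cells, among them progenitors of Leydig cells. NCOR1 and NRIP1 (RIP140) are corepressors that bring histone deacetylases to nuclear receptors. BCL11A (CTIP1) and BCL11B (CTIP2) are zinc finger repressors that were named for their interaction with COUP-TF proteins. ZFPM1 (FOG1) and ZFPM2 (FOG2) are multi-zinc-finger partners of GATA factors, and ZFPM2 is required for gonadal development in the mouse. NCOA1 (SRC-1), NCOA2 (SRC-2) and NCOA3 (SRC-3) form the p160 family of coactivators, which bind ligand-activated receptors and recruit acetyltransferases.

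The sequence of a peak shows which letters of the NR2F2 recognition hexamer it holds. Among the 16 peaks, 3 held an octamer AGAGGTCA or AGGGGTCA on either strand, against 10.5% of the 10064 peaks on placed chromosomes. These were both Bcl11b peaks and the distal Ncoa1 peak. They are printed in GRCm38 (mm10) as chr12:107979843-107980142 on the plus strand, chr12:108006372-108006671 on the minus strand and chr12:4523777-4524076 on the minus strand. Capitals mark the octamers and any further hexamer AGGTCA or GGGTCA, read on either strand.
Bcl11b second intron: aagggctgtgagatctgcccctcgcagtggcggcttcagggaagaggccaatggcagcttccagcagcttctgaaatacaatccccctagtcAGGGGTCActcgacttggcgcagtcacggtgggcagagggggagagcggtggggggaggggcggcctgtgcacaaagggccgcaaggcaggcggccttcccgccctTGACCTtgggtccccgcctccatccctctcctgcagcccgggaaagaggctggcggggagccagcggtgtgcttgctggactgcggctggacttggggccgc
Bcl11b upstream: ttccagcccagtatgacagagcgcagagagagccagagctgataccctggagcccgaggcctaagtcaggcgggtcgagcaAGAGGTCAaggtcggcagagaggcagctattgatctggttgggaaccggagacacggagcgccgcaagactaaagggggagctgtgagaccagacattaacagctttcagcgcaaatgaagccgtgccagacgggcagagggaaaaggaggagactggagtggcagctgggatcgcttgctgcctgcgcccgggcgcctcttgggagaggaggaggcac
Ncoa1 distal: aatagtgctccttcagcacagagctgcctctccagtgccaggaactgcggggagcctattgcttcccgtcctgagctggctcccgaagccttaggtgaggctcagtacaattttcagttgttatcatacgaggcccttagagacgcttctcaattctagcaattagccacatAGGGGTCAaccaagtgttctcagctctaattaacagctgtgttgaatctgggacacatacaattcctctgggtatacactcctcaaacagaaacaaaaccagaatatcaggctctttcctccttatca
In the Bcl11b intronic peak, the octamer lay at bases 93 to 100 and a second hexamer, on the opposite strand, at bases 199 to 204. In the upstream peak of Bcl11b, the capitals at bases 82 to 89 were followed directly by aggtcg, a second hexamer with 1 mismatch. The octamer of the distal Ncoa1 peak lay at bases 173 to 180.

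Of the member peaks without the octamer, the 4 with the highest summed ChIP counts are shown so that their hexamer content can be compared. These 4 had sums between percentile 50.2 (Nrip1) and percentile 97.8 (Zfpm1) of all peaks. They are printed from chr8:122281606-122281905 on the plus strand, chr1:13374389-13374688 on the minus strand, chr2:166031230-166031529 on the plus strand and chr16:76373279-76373578 on the minus strand. Capitals mark the hexamers AGGTCA or GGGTCA, on either strand, in the first 3 and the dinucleotide CG in the Nrip1 peak, which held no hexamer.
Zfpm1 proximal: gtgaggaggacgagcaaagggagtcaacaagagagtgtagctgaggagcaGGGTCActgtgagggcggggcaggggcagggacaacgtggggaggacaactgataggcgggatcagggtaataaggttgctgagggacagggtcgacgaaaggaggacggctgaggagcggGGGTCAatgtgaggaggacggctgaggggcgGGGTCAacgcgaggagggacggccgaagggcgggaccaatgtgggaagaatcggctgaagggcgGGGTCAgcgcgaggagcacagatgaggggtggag
Ncoa2 proximal: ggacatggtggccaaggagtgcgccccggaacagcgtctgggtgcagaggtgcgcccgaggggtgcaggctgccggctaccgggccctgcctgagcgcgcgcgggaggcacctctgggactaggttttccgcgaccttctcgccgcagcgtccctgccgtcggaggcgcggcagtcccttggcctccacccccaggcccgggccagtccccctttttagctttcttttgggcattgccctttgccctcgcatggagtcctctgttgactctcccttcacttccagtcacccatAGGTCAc
Ncoa3 first intron: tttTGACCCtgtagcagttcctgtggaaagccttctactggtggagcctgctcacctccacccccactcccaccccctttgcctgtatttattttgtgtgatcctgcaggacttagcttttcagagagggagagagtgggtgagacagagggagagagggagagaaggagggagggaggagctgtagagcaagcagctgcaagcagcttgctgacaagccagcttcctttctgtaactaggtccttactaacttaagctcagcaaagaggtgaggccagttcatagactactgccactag
Nrip1 proximal: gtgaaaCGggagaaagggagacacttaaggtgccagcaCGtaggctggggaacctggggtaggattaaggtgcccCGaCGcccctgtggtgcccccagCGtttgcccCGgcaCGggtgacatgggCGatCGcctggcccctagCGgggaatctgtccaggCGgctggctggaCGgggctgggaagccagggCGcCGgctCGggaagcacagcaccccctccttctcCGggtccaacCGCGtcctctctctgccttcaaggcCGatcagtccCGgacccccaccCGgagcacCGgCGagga
The Zfpm1 peak held GGGTCA 4 times, each time on the plus strand, and only 225 of the 10064 peaks (2.24%) held 4 or more hexamers. Its hexamers sat in a repeated G-rich stretch. Shifted by 95 bases, the peak matched itself at 43.4% of positions, percentile 97.8 of all peaks for the best such match, against a median of 34.3%. The hexamers of the Ncoa2 and Ncoa3 peaks lay 146 and 144 bases from the peak centre, at the edge of the region.

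Across the whole set, 10 of the 16 peaks held AGGTCA or GGGTCA on either strand, against 58.9% of all peaks. The hexamer AGGTCA was in 6 of the 16 peaks (37.7% of all peaks), and GGGTCA was in 5 of the 16 (32.4% of all peaks). A direct repeat of AGGTCA with 1 base between the copies was in none of the 16 and in 1.24% of all peaks. Of the members, 2 held a pair of hexamers in 1 orientation with at most 1 mismatch and 0 to 5 bases between them, against 20.3% of all peaks, and these were the upstream Bcl11b peak and the peak in Pigl. Among motifs of other factors, GGGCGG (the GC box) was in 4 of the 16 peaks and in 39.5% of all. CCGGAAGT (an ETS motif) was in none of the 16 and in 4.18% of all, and AGATAA, bound by the GATA family, was in none of the 16 and in 7.08% of all. All motifs were searched on both strands. Among all peaks the shares varied with position. Peaks overlapping a TSS or up to 1 kb upstream of one held the GC box at 61.7% and the octamer at 6.13%. For the remaining peaks these shares were 27.0% and 12.9%. The ETS motif was in 9.14% against 1.40%, and AGATAA in 3.56% against 9.07%. The shares of the members lay on both sides of those of all peaks and were not matched by position, and the search shows letters only.

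By position, 9 of the 16 peaks were TSS proximal, here overlapping a TSS of any gene or up to 1 kb upstream of it, against 36.0% of all peaks. Of the other 7, 5 lay in gene bodies, 1 lay upstream within 10 kb and 1 was intergenic. Within 1 kb of a TSS on either side lay 11 of the 16 peaks, against 58.0% of all. Counted by gene, 7 of the 9 members had a peak within 1 kb of one of their own TSSs, whereas 28.2% of 20923 protein-coding genes did. The rule itself gave a peak to 9 of 9 members and to 58.1% of coding genes, and at least 2 peaks to 5 of 9 members and to 28.2% of coding genes. No test was made of these shares, since the genes were chosen with the results known.

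**Figure D1:**
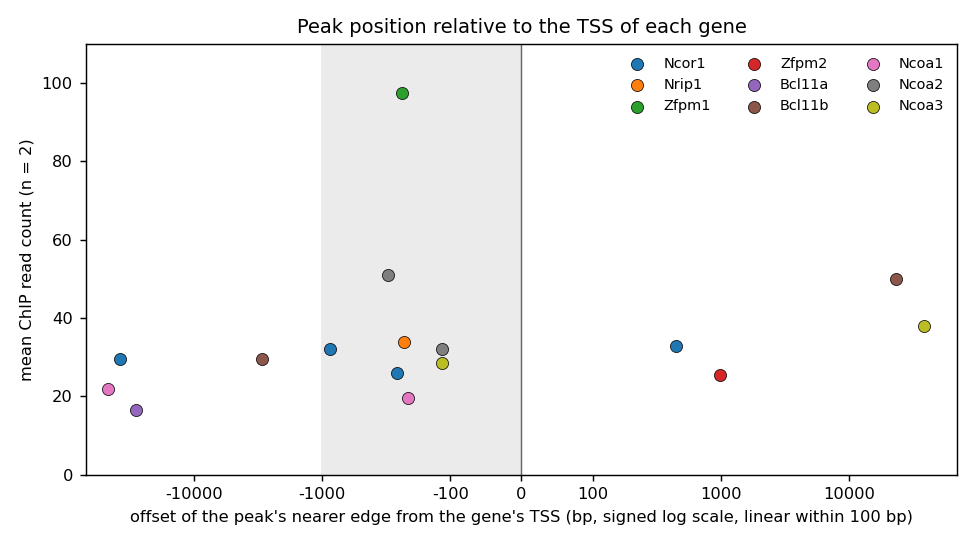
Offset of each of the 16 peaks from the TSS of its gene (x axis, bp on a signed log scale that is linear within 100 bp, negative upstream) against its mean ChIP read count over 2 replicates (y axis), with 1 point a peak and colour for the gene. The shaded band is 1 kb upstream of the TSS; the Zfpm1 point in it stands highest at 97.5 reads.

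Ncor1 (Entrez 20185, chr11, minus strand), which encodes the nuclear receptor corepressor, had 4 peaks by the rule, of which 2 had Ncor1 as the nearest TSS and 2 had Pigl. The first lay 262 bp upstream of its TSS (chr11:62457594-62457893), with 8 reads in the input, 22 in replicate 1 and 30 in replicate 2. The second lay 444 bp inside the gene, in the first intron (chr11:62456589-62456888), with 11 input reads against 34 and 32. The third lay 867 bp upstream and overlapped the TSS of Pigl, a gene of glycosylphosphatidylinositol anchor synthesis that starts from the opposite strand (chr11:62458199-62458498). It had 5 input reads against 35 and 29. These 3 peaks spanned the shared promoter region of Ncor1 and Pigl, and the peak on the Pigl side had the lowest input count of them. The fourth lay 37393 bp upstream of Ncor1 in an intron of Pigl (chr11:62494725-62495024), with 12 input reads against 33 and 26. Both ChIP counts exceeded the input count at all 4, as they did at 99.9% of all 10069 peaks, at sums between percentiles 28.9 and 47.5 of all peaks.

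Nrip1 (Entrez 268903, chr16, minus strand), whose product RIP140 is a ligand-dependent corepressor, had 1 peak. It lay 230 bp upstream of a TSS and within the first intron of the longer transcript NM_001358238.1. The input held 3 reads, the lowest input count among the members, and the replicates held 31 and 37. Their mean was 11.3 times the input count, uncorrected for depth, with an exact 95% interval from 3.72 to 56.3 that is wide because of the few input reads. The ChIP sum itself was in the middle of all peaks (percentile 50.2), whereas the input was at percentile 8.71.

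Zfpm1 (Entrez 22761, chr8, plus strand), the GATA cofactor FOG1, had the most reads of the 16 peaks. Its single peak ended 236 bp upstream of the TSS and held 15 reads in the input, 102 in replicate 1 and 93 in replicate 2. It ranked 220 of 10069 by the ChIP sum (percentile 97.8), and its input count was likewise high (percentile 97.6). Its mean ChIP count was 6.50 times the input (exact 95% interval from 3.85 to 11.8), and its ratio with 0.5 added to each count was at percentile 72.7.

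Zfpm2 (Entrez 22762, chr15, plus strand), the paralogue FOG2, had 1 peak 990 bp downstream of the TSS, in the first intron (chr15:40656032-40656331). Its counts were 6 in the input, 27 in replicate 1 and 24 in replicate 2. Both ChIP counts were below the medians of all peaks, and the nearest other peak was 1543347 bp away.

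Bcl11a (Entrez 14025, chr11, plus strand), which encodes CTIP1, had the peak with the fewest ChIP reads of the members and the only intergenic one, 28453 bp upstream of the TSS (chr11:24049304-24049603). It held 6 reads in the input, 18 in replicate 1 and 15 in replicate 2, and its ChIP sum was at percentile 4.68 of all peaks. Bcl11b (Entrez 58208, chr12, minus strand), which encodes CTIP2, had no TSS-proximal peak either. Its peak 23272 bp inside the gene, in the second of 3 introns of NM_001079883.1, held 10 input reads against 61 and 39. This was the largest difference between replicates among the 16 peaks in reads, and it did not pass the exact binomial test described below (p = 0.162, adjusted p = 0.754). Its peak 2958 bp upstream held 6 input reads against 28 and 31. The ratios of the means to the input, 5.00 for the intron and 4.92 upstream, had overlapping exact 95% intervals (from 2.61 to 10.7 and from 2.13 to 13.9).

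Each of the 3 p160 coactivator genes had a TSS-proximal peak and a second peak. Ncoa1 (Entrez 17977, chr12, minus strand) had a peak 214 bp upstream (chr12:4477396-4477695), with 6 reads in the input, 16 in replicate 1 and 23 in replicate 2. Its second peak lay 46595 bp upstream, 37 bp from the TSS of the predicted gene Gm31938, with 10 reads in the input and 22 in each replicate. Both were low for NR2F2 peaks, at percentiles 11.9 and 18.2 of the ChIP sum.

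Ncoa2 (Entrez 17978, chr1, minus strand) had a peak 306 bp upstream of its outer TSS, with 8 reads in the input, 57 in replicate 1 and 45 in replicate 2. A second peak lay 116 bp upstream of its inner TSS (chr1:13372545-13372844), in the first intron of NM_008678.3, with 10 input reads against 29 and 35. The outer peak had more reads than the inner one in both ChIP libraries and fewer in the input, and the peaks were 1544 bp apart. Their ratios to the input, 6.38 and 3.20, had overlapping exact 95% intervals (from 3.12 to 15.2 and from 1.63 to 6.99).

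Ncoa3 (Entrez 17979, chr2, plus strand) had a peak 117 bp upstream (chr2:165992221-165992520), with 7 reads in the input, 31 in replicate 1 and 26 in replicate 2. Its other peak lay 38593 bp downstream of the TSS, in the first intron of NM_001374779.1, and held 8 input reads against 41 and 35. That intronic peak held no CG dinucleotide, the only member peak without one.

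Between the libraries, the 16 peaks had a median of 8 input reads (range 3 to 15), 31 reads in replicate 1 (range 16 to 102) and 30.5 in replicate 2 (range 15 to 93). Both ChIP counts exceeded the input count in each of the 16 peaks, against 99.9% of all peaks. Their median ratio of ChIP to input, uncorrected for depth and with 0.5 added, was 3.95 ± 0.37 (SD, n = 2 replicates). Over all peaks it was 4.75 ± 0.50. Both replicates were divided by the same input. Replicate 1 held more reads than replicate 2 over all peaks (426784 against 364261), so the SD includes that difference. Of the 16, 4 had a ChIP sum above the median of all peaks, and the highest sums were those of Zfpm1, the outer Ncoa2 peak and the Bcl11b intron.

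**Figure D2:**
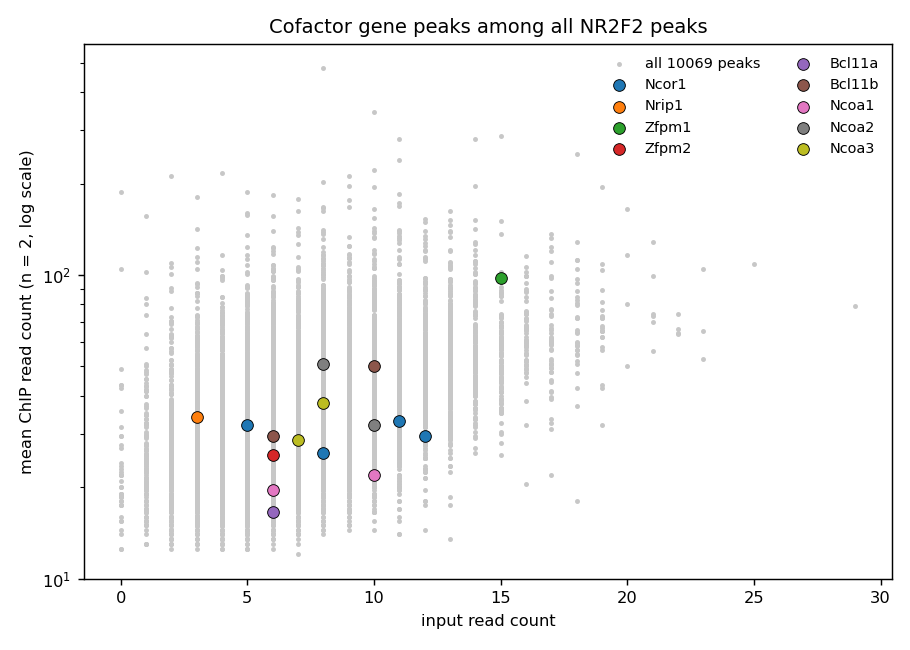
Input read count (x axis) against the mean ChIP read count over 2 replicates (y axis, log scale) for all 10069 peaks (grey) and the 16 member peaks (coloured by gene). The Zfpm1 peak, at 15 input reads and 97.5 ChIP reads, lies apart from the other member peaks, which lie between 16.5 and 51.0 ChIP reads.

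To ask which peaks exceeded the input, edgeR's quasi-likelihood test was fitted to all 10069 peaks, with the input set to the mean size of the ChIP libraries because the true depths are unknown. At an adjusted p below 0.05, all 16 member peaks exceeded the input, as did 97.8% of all peaks, so the members' count is near the background. The log2 difference was highest at Nrip1 (3.45, SE 0.61, adjusted p = 7.9e-08). It was 2.69 at Zfpm1 (SE 0.33, adjusted p = 2.0e-14), 2.65 at the outer Ncoa2 peak (SE 0.46, adjusted p = 3.4e-08) and 2.64 at the Ncor1 peak over the Pigl TSS. The Bcl11b peaks gave 2.30 in the intron (SE 0.44, adjusted p = 4.5e-07) and 2.27 upstream, and the intronic Ncoa3 peak gave 2.23 (SE 0.48, adjusted p = 6.8e-06). Zfpm2 gave 2.06 (SE 0.57, adjusted p = 0.000379), and the intronic Ncor1 peak, the one of the 4 with the most ChIP reads, gave 1.57 (SE 0.45, adjusted p = 0.000695). It was lowest at the distal Ncoa1 peak (1.13, SE 0.52, adjusted p = 0.0310), followed by the Ncor1 peak in Pigl (1.28) and Bcl11a (1.44, SE 0.65, adjusted p = 0.0278). With the ChIP libraries taken to be 2 times deeper than the input, 7 of the 16 stayed above it, against 56.2% of all peaks. The 7 were Nrip1, Zfpm1, the outer Ncoa2 peak, the Ncor1 peak over the Pigl TSS, both Bcl11b peaks and the intronic Ncoa3 peak. The calls at Bcl11a, Zfpm2, both Ncoa1 peaks, the inner Ncoa2 peak, the proximal Ncoa3 peak and the other 3 Ncor1 peaks were lost at that depth. The same 9 calls were also lost in DESeq2 at the original scaling, which called 6308 of all peaks. Since 1 input library was sequenced, the spread comes from the ChIP replicates alone.

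A second edgeR test asked which peaks were more or less enriched than the typical peak, by scaling the libraries with TMM so that the typical log2 difference is close to 0 (median over all peaks 0.016). None of the 16 was called in either direction, while 1.53% of all peaks were called above and 0.0497% below. At an unadjusted p below 0.05 in edgeR there were 2 members of 16, both lower than typical, and 1051 of all 10069 peaks, so the members' count is near the background. DESeq2 gave an adjusted p for Zfpm1 alone among the 16 (0.816), gave none for the other 15, and had 0 of the 16 at an unadjusted p below 0.05. The 2 members were the distal Ncoa1 peak (log2 difference -1.17, SE 0.58, unadjusted p = 0.0442, edgeR adjusted p = 0.459) and the Ncor1 peak in Pigl (-1.02, SE 0.52, unadjusted p = 0.0491, edgeR adjusted p = 0.475). The highest value was that of Nrip1 (1.18, SE 0.76, edgeR adjusted p = 0.657), followed by Zfpm1 (0.38, SE 0.39). The log2 difference was below 0 at 12 of the 16, against 4917 of all 10069 peaks, and the members' median was -0.26. Among the 4 above 0 were Nrip1, Zfpm1, the outer Ncoa2 peak (0.35) and the Ncor1 peak over the Pigl TSS (0.36).

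**Figure D3:**
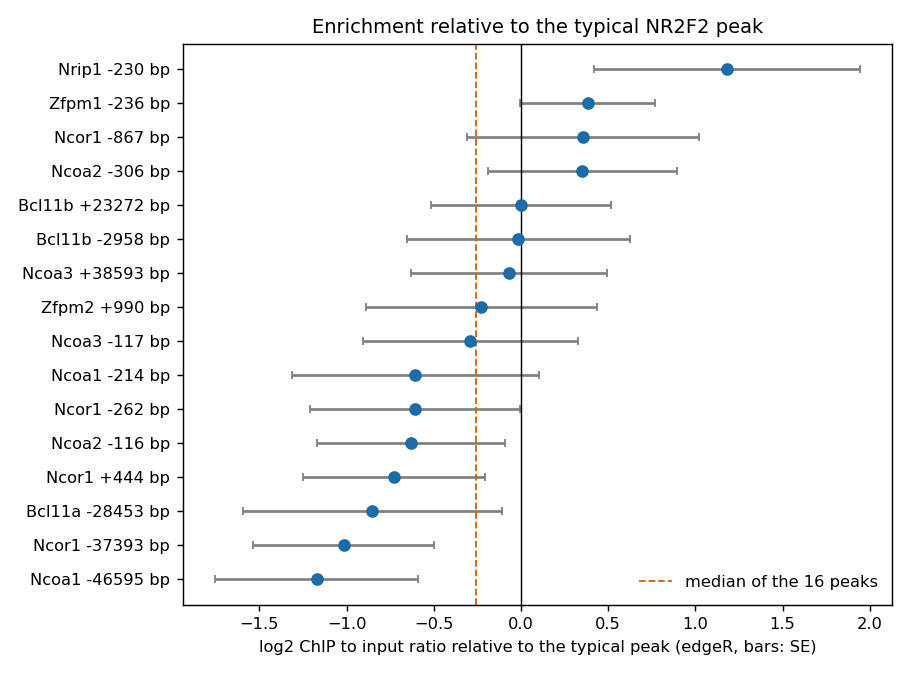
Log2 ChIP to input difference of each member peak relative to the typical NR2F2 peak (x axis, points, with bars for the SE from edgeR) for the 16 peaks ordered by value (rows). The dashed line is the members' median of -0.26; 4 points lie right of 0 and 12 left of it.

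The 2 replicates were compared at each peak with an exact binomial test against the share of reads in replicate 1 over all peaks (54.0%). This test treats reads as independent, so its p-values cover counting error only and compare 2 libraries. No member peak differed between replicates after adjustment, against 0.0993% of all peaks, and none had an unadjusted p below 0.05 in this exact test, against 889 of all 10069. Replicate 1 held more reads at 10 of the 16 peaks, replicate 2 at 5, and the counts were equal at 1, against 6975, 2710 and 384 of all peaks. The peaks with more reads in replicate 2 were the proximal Ncor1, Ncoa1 and Nrip1 peaks, the inner Ncoa2 peak and the upstream Bcl11b peak. The lowest exact p was that of the proximal Ncor1 peak (0.0966, adjusted p = 0.661), where 42.3% of the ChIP reads came from replicate 1.

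In base composition, the member peaks ranged from 47.7% G and C at the distal Ncoa1 peak to 68.3% at Nrip1, with medians of 60.7% over all peaks and 64.7% over TSS-proximal ones. The ratio of observed to expected CG dinucleotides was 0 at the intronic Ncoa3 peak, 0.0962 at the Ncor1 peak in Pigl and 0.30 at the distal Ncoa1 peak. It was highest at the proximal Ncor1 peak (0.985, with 29 CG dinucleotides), followed by Zfpm1 (0.868). The medians were 0.640 over all peaks and 0.797 over TSS-proximal ones. The distal Ncoa1 peak thus had few CG dinucleotides although the RefSeq annotation places it beside a TSS.

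**Figure D4:**
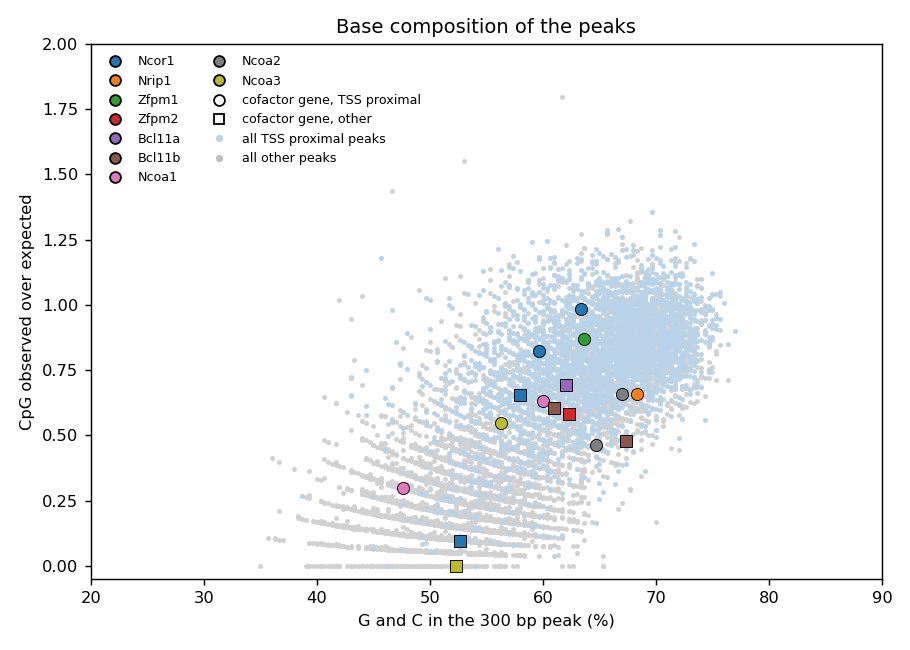
Share of G and C in each 300 bp peak (x axis, percent) against the ratio of observed to expected CG dinucleotides (y axis) for all peaks on placed chromosomes (small points) and the 16 member peaks (large points, circles for TSS-proximal and squares for others, coloured by gene). Member peaks run from the intronic Ncoa3 peak at a ratio of 0 to the proximal Ncor1 peak at 0.985.

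The rule's limit of 50 kb decided which distal peaks were included. The farthest member by distance alone was the distal Ncoa1 peak at 46595 bp. Nearest outside were peaks at 81296 bp (5 input reads against 23 and 17), 81891 bp (6 against 16 and 16) and 93950 bp (11 against 38 and 35) from Ncor1, all nearer to other genes. They were followed by a peak 94206 bp from Zfpm1, nearest to Zc3h18 (9 input reads against 52 and 39). With a limit of 100 kb there would be 21 peaks, with 25 kb 14, and with the nearest TSS alone 13.

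Other genes of nuclear receptor coregulation, a list of 31 that holds deacetylases, corepressor complex subunits, further coactivators and partners of COUP-TF factors, gave a wider view. By the same rule, 27 of the 31 had a peak (58.1% of coding genes), 50 peaks in all, and Lcor, Ncoa6, Carm1 and Ppargc1b had none. A listed gene had the nearest TSS at 30 of the 50 peaks, and 20 of the 31 genes had such a peak. In edgeR, 49 of the 50 exceeded the input, near the 97.8% of all peaks. None was called above or below the typical peak (1.53% and 0.0497% of all peaks), and none differed between replicates in the exact binomial test (0.0993% of all peaks). Their median log2 difference from the typical peak was 0.31, against -0.26 for the members. Within 1 kb of their own TSS, 15 of the 31 genes had a peak (28.2% of coding genes). The highest ChIP sum was at a peak 46878 bp upstream of Rcor1, a subunit of the CoREST corepressor complex, with 9 input reads against 87 and 69, and its nearest TSS was that of 6030440G07Rik. At the TSS of Gata4, the zinc finger factor that ZFPM2 binds in the gonad, a peak 152 bp upstream held 8 input reads against 76 and 62. A peak 687 bp upstream of Ctbp2, a corepressor that binds ZFPM proteins, held 5 input reads against 69 and 66. The other two genes with high sums were Ncoa7, an estrogen receptor coactivator whose peak lay at the TSS of Hint3 (7 input reads against 95 and 56), and Gps2, a subunit of the NCOR complex whose peak lay near Slc2a4 (8 input reads against 83 and 53). These 5 peaks all had fewer ChIP reads in each replicate than the Zfpm1 peak.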

How the data were processed

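The 9 genes, the list of 31 further coregulator genes and the motifs were chosen with earlier results of these data known. The authors deposited, for 1 input and 2 NR2F2 ChIP libraries, the raw read count at each of 10069 peaks of 300 bp (mm10). Per the submitters' processing notes, Trim Galore 0.6.7, Bowtie2, Picard 1.110, HOMER 4.11.1 and bedtools were used. Per the study's methods, reads were trimmed and aligned, duplicates were removed, and peaks were called on the merged ChIP reads. How reads were assigned to peaks, and whether the input entered peak calling, is not given. Duplicate removal caps the count a position can reach, and merged calling may favour peaks with high ChIP counts.

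Peaks were annotated with 45756 curated RefSeq transcripts of GRCm38. Distances run from the nearer edge of a peak to the TSS. Ratios of single peaks are mean ChIP over input counts with nothing added, and median ratios, log2 ratios and percentiles of ratios used counts with 0.5 added. Tests ran over all 10069 peaks with Benjamini-Hochberg adjustment at 0.05: edgeR 4.0.16 quasi-likelihood fits (limma 3.58.1, R 4.3.3) for ChIP against input, with the input set to the mean ChIP size or, for the typical peak, TMM, and exact binomial tests between replicates (two-sided, scipy 1.17.1). DESeq2 1.42.0 was an alternative. The edgeR and exact binomial tests were checked on simulated counts, and the DESeq2 fits were not. As the replicates are 2 ChIP experiments on pooled testes, p-values of the edgeR and DESeq2 fits measure the spread between these libraries, which may be technical, and those of the exact binomial tests cover counting error only. All member peaks are described, and other genes are named by the highest summed ChIP count. The first 5 by that rule are named. Depth beyond the peaks was not known, and 5 peaks on unplaced contigs were left out of sequence measures.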

Additional observations from a re-analysis of the deposited data

How the results depend on the processing

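No paired analysis was possible because the input is a single library whose label carries no replicate number. Each of the 16 peaks kept a positive log2 difference from the input under every setting that tested it. The count of members above the input was 16, and it was 7 when the ChIP depth was assumed to be 2 times that of the input, 7 in DESeq2 and 6 of the 6 tested with at least 10 input counts. Over all peaks it was 9847, and it became 5663 with deeper ChIP libraries, 6308 in DESeq2 and 2371 of the peaks with at least 10 input counts. Without scaling, 14 members and 8122 of all peaks were called, and the proximal Ncoa1 peak and the Ncor1 peak in Pigl were lost. Over all peaks, 159 differed from the typical peak in the edgeR fit, 39 with DESeq2 size factors, 22 in DESeq2 and 62 with at least 10 input counts, and none of these was a member peak. DESeq2 gave no adjusted p for 585 peaks in the first comparison and for 9370 in the second, 15 of them member peaks. The members' median log2 ratio, uncorrected for depth, was 1.98. It ranged from 1.88 to 2.08 when 1 replicate was left out, and was 1.49 with 5 rather than 0.5 added to the counts. Members with the octamer numbered 3, with AGGTCA 6, with AGGTCA or GGGTCA 10 and with the direct repeat 0. The hexamer with either first base and the pair of hexamers were added after the data were seen. Leaving out 1 ChIP replicate leaves no residual degrees of freedom, so counts of calls have no value there. The low input counts (3 to 15 reads a peak) and the unknown depths limit every ratio, and the causes of these changes were not tested.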
